A study of Mus musculus with 19 samples.

Results

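The genes of cholesterol synthesis, uptake and efflux were examined in lavage cells of ICAM-1 null and wild type mice (ICAM-1 is an adhesion molecule of the cell surface), with and without bacterial particles in the airways. The set held 33 genes, chosen by name from the 56941 genes of the deposited tables, and all 33 were found and passed the filter on low counts. They were divided by role into 20 targets of SREBP2 (a sterol regulatory element-binding protein), 5 targets of LXR (the liver X receptors), 3 further genes of sterol sensing, 2 LXR receptors and 3 genes of cholesterol trafficking and esterification. The study had 19 libraries of cells rinsed from the airspaces of female mice aged 7 to 8 weeks. The 4 groups were ICAM-1 null mice given pHrodo-labelled Staphylococcus aureus bioparticles (exposed null, n = 5), wild type C57Bl/6J mice given the same particles (exposed wild type, n = 5), untreated ICAM-1 null mice (naive null, n = 5) and untreated C57Bl/6J mice (naive wild type, n = 4). Exposed mice had aspirated 100 µL of particles at 2.27 mg/mL under isoflurane, 1 h before lavage. The labels name neither a vehicle nor an anaesthetic for naive mice, nor the strain background of the null line, so handling and background cannot be told apart from exposure and genotype.

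Cells hold their cholesterol within narrow limits through a pair of opposed transcriptional arms. When membrane sterol is low, the escort protein SCAP carries SREBP2 from the endoplasmic reticulum to the Golgi, where it is cleaved, and its released part switches on the enzymes of cholesterol synthesis. INSIG proteins hold SCAP back when sterol is plentiful. LXR receptors respond to oxysterols, which accumulate with cholesterol, and switch on genes of efflux and lipid remodelling. Alveolar macrophages, phagocytes that live in the airspaces, take up and break down surfactant, a mixture rich in phospholipid and cholesterol, and depend on these routes.

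Per-library values below are CPM computed from the estimated counts with library sizes scaled by TMM, edgeR's trimmed-mean factor (scaled CPM), the scale of the main test, and levels are compared between genes only in TPM, which accounts for transcript length. Library totals were 32.8 to 80.3 M estimated counts, lowest in naive wild type libraries 1, 2 and 3. These totals exceed the planned 20 M reads a library, and no source used here gives the read length setting behind the estimated counts, which may therefore not be numbers of sequenced fragments. Icam1, the targeted gene, stood at 4.88 to 13.2 TPM in null libraries, against 722 to 1079 TPM in exposed and 63.8 to 85.9 TPM in naive wild type libraries. Of 11 alveolar macrophage markers, 10 were found by name, and their summed level was 21008 to 28271 TPM per library. Chil3 alone averaged 14475.9 to 16821.5 TPM per group. Of the 10 markers, 4 rose and 2 fell on exposure in null mice, and 7 rose and 2 fell in wild type mice. Between genotypes, 2 were higher and 2 lower in exposed null mice, and 3 higher and 1 lower in naive null mice. Marco was higher in null mice, with log2 fold changes of 1.77 when exposed and 2.01 when naive. Car4 was lower, with -0.68 when exposed and -1.11 when naive. Summed epithelial markers (10 of 10 found) were 900.4 to 1304 TPM in exposed null, 1583 to 3359 TPM in exposed wild type, 957 to 1104 TPM in naive null and 1021 to 1296 TPM in naive wild type libraries. Red cell markers (5 of 5) summed to 369.7 to 2399 TPM in exposed wild type libraries and to at most 409.6 TPM in any other. Neutrophil markers (9 of 9) summed to 125 to 188 TPM in exposed null, 86.0 to 117 TPM in exposed wild type, 170.1 to 185 TPM in naive null and 66.9 to 94.1 TPM in naive wild type libraries. Of the 7 neutrophil markers that passed the filter, 2 rose and 1 fell on exposure in null mice, and 4 rose and 1 fell in wild type mice. Against wild type mice, 3 were higher and 2 lower in exposed null mice, and 3 higher and 0 lower in naive null mice. Csf3r averaged 54.7 TPM in exposed null and 16.3 TPM in exposed wild type libraries. In naive libraries it averaged 99.0 TPM in null and 31.6 TPM in wild type mice. S100a9 (2.89 against 8.25 TPM) and Retnlg (0.0389 against 0.921 TPM) were lower in exposed null mice. Ltf, a granule protein gene, averaged 38.6 TPM in exposed null and 9.63 TPM in naive null libraries, and 34.7 TPM in exposed wild type and 10.5 TPM in naive wild type libraries, while Camp, another granule gene, averaged at most 0.0198 TPM in any group. T and NK cell markers (6 of 6) summed to 44.8 to 70.3 TPM and B cell markers (3 of 3) to 0.0413 to 1.10 TPM over all libraries. The part of these cells in the results below was not tested. In these bulk samples fewer cells of a type and less RNA per cell cannot be told apart.

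Levels per transcript length spanned about 2 orders of magnitude among the members. The highest was Abcg1, a transporter that exports cholesterol, at 357 ± 41.9 TPM in exposed null, 368 ± 47.5 TPM in exposed wild type, 726 ± 45.6 TPM in naive null and 805 ± 24.3 TPM in naive wild type libraries (SD, with n as above). Npc2, a soluble protein that hands cholesterol out of the lysosome, followed with 305 ± 10.1 TPM in exposed null, 273 ± 15.2 TPM in exposed wild type, 374 ± 11.8 TPM in naive null and 334 ± 6.11 TPM in naive wild type libraries. The lowest in naive wild type libraries were Hsd17b7 (6.31 ± 1.15 TPM), Sc5d (8.68 ± 0.617 TPM) and Lss (9.37 ± 0.489 TPM), enzymes of the sterol part of the pathway. The other LXR transporter, Abca1, stood at 23.3 ± 3.36 TPM there, and both export genes lay at opposite ends of the range of the LXR targets. The master regulator Srebf2 stood at 59.5 ± 5.07 TPM and Srebf1 at 78.9 ± 4.37 TPM in naive wild type libraries.

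After 1 h of bacterial particles a group of SREBP2 targets led by Insig1, Cyp51 and Idi1 rose, while 2 of the 5 LXR targets, Abcg1 and Mylip, fell in both genotypes. Abca1 rose in null mice on scaled counts. Of 20 SREBP2 targets, 10 rose, 3 fell and 7 did not pass in null mice, and 12 rose, 2 fell and 6 did not pass in wild type mice (edgeR quasi-likelihood test, adjusted p under 0.05 over 20501 genes). Over all genes tested, 21.4% were called higher and 23.4% lower in null mice, and 20.1% higher and 20.2% lower in wild type mice. The median log2 fold change of the 20 targets was 0.32 in null and 0.52 in wild type mice, against 0.016 and 0.021 over all genes tested, and on the TPM scale (per gene length and library total) the null median was -0.063. On that scale 6 targets rose and 7 fell in null mice, and 9 rose and 7 fell in wild type mice. Of all 20501 genes, 2236 rose and 8414 fell there in null mice, and 2251 rose and 8402 fell in wild type mice. The libraries of exposed and naive mice did not overlap for 9 targets that were higher and 2 that were lower in null mice, against 16.1% and 18.4% of all genes. In wild type mice that was so for 11 higher and 2 lower targets, against 16.6% and 16.8% of all genes. The 10 targets that rose in null mice were all among the 12 that rose in wild type mice. The share of all genes called higher in both genotypes is not given here. The 2 genotypes share no library in these contrasts, but both were fitted in 1 model with a shared estimate of spread. Of 10 epithelial markers, 7 rose on exposure in each genotype, and 1 fell in null mice. The secretory protein gene Scgb1a1 averaged 439.7 TPM in exposed null and 205 TPM in naive null libraries, and 1266 TPM in exposed wild type and 247 TPM in naive wild type libraries. Its log2 fold change on scaled counts was 1.45 (adjusted p = 0.000101) in null and 2.77 (adjusted p = 1.84e-07) in wild type mice.

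**Figure D1:**
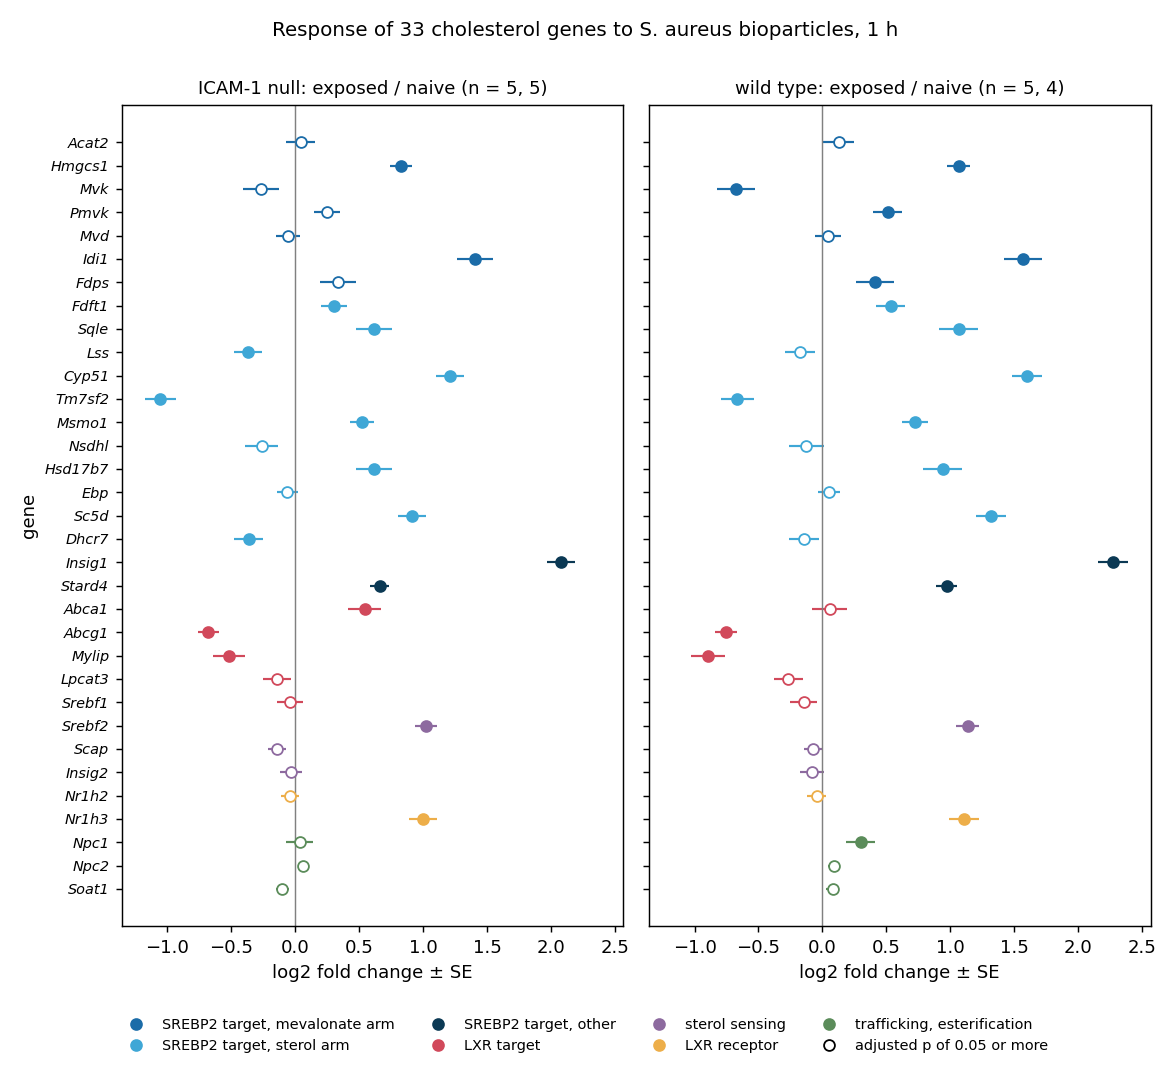
Log2 fold change (x axis, ± SE) of each of the 33 genes (y axis, grouped by role in colour) for exposed over naive mice, in ICAM-1 null mice on the left and wild type mice on the right. Filled points passed an adjusted p of 0.05. Insig1 lies farthest to the right in both panels (2.08 and 2.27), and the LXR targets Abcg1 and Mylip lie left of 0 in both.

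Insig1 (ENSMUSG00000045294.12, chromosome 5, 28276361 to 28283660 on GRCm39), which encodes a protein that retains SCAP in the endoplasmic reticulum and is itself switched on by SREBP2, had the largest log2 fold change of the 33 members in both genotypes. Insig1 stood at 287, 341, 257, 240.1 and 264 scaled CPM in exposed null libraries, against 67.8, 61.2, 71.7, 61.7 and 66.5 in naive null libraries. It stood at 271, 259.8, 349, 304 and 264 scaled CPM in exposed wild type libraries, against 63.8, 47.2, 67.5 and 61.5 in naive wild type libraries. Every exposed library held more than 3 times the level of every naive library of its genotype. The log2 fold change was 2.08 (SE 0.11, adjusted p = 1.0e-12) in null and 2.27 (SE 0.12, adjusted p = 1.6e-12) in wild type mice. Stard4, a carrier that moves cholesterol through the cytosol and a known SREBP2 target, rose less. Stard4 stood at 38.7, 46.1, 38.4, 39.9 and 43.3 scaled CPM in exposed null libraries, against 28.6, 26.8, 22.6, 25.2 and 27.4 in naive null libraries. It stood at 51.4, 49.5, 53.96, 53.5 and 52.5 scaled CPM in exposed wild type libraries, against 28.3, 23.8, 25.7 and 28.4 in naive wild type libraries. The groups did not overlap in either genotype, and the log2 fold change was 0.66 (SE 0.076, adjusted p = 3.5e-07) in null and 0.97 (SE 0.083, adjusted p = 5.1e-09) in wild type mice.

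SREBP2 acts at sterol regulatory elements that usually lie next to sites of the general factors NF-Y and Sp1, so the promoters of the members were searched on both strands for 4 short motifs and for the LXR element DR4, in which the letters AGGTCA are repeated in the same direction after 4 bases. RefSeq promoters of the older build GRCm38.p6, covering 250 bases before to 50 bases after each start, were held for 27 of the 33 members, and a gene with several starts has several, partly shared windows. They covered 16 of the 20 SREBP2 targets and 4 of the 5 LXR targets, and none was held for Abcg1. The sterol element core TCACNCCAC was found in 1 of 19 promoters of SREBP2 targets (5.26%), that of Hmgcs1, against 1.24% of all 32851 promoters. The NF-Y box CCAAT was found in 15 of 19 (78.9%), against 37.4% of all. The GC box GGGCGG, bound by Sp1, was found in 16 of 19 (84.2%), against 35.7% of all, and the E-box CACGTG in 4 of 19 (21.1%), against 7.15% of all. Of the 6 promoters of LXR targets, the NF-Y box was found in 66.7%, the GC box in 83.3% and the E-box in 16.7%. DR4 in these exact letters was found in 0 of 6 promoters of LXR targets and in 0.0152% of all. A match describes these letters and windows only. The promoters of Hmgcs1 and Insig1 are shown because both genes rose and differ in their matches (Insig1 was added after the matches were seen), and that of Abca1, an LXR target, for contrast. Capitals mark the matches, which are 1 sterol core, 4 NF-Y boxes and 3 GC boxes in Hmgcs1 (chr13:119690101-119690400, plus strand), 1 NF-Y box, 1 E-box and 3 GC boxes in Insig1 (chr5:28071162-28071461, plus strand), and 1 E-box and 2 GC boxes in Abca1 (chr4:53159846-53160145, minus strand). No 2 of these matches overlap.
Hmgcs1: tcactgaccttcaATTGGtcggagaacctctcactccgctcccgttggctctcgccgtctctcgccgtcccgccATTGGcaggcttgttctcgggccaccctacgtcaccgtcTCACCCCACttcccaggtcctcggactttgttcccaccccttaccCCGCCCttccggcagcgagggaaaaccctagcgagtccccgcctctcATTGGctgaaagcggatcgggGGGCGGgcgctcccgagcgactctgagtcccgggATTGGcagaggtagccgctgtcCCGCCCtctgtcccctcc
Insig1: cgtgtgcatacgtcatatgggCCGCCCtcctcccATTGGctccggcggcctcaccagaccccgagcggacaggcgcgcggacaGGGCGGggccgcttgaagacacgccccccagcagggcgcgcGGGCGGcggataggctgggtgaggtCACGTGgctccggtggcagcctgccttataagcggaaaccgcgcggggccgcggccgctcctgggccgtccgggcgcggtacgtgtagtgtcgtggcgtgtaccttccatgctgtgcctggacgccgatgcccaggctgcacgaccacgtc
Abca1: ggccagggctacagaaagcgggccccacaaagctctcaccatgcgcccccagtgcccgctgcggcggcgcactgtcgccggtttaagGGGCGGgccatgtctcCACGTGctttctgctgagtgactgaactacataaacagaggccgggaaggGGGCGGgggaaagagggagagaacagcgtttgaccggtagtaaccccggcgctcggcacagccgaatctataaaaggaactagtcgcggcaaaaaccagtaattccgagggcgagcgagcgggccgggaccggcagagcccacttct

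Among the 7 genes of the mevalonate arm, which builds isoprenoid units from acetyl-CoA, 2 rose and 5 did not pass in null mice, and 4 rose, 1 fell and 2 did not pass in wild type mice. Hmgcs1 (ENSMUSG00000093930.3, chromosome 13, 120151915 to 120169796), the HMG-CoA synthase at the head of the pathway, rose in both. Hmgcs1 stood at 213, 263, 226, 209.6 and 216 scaled CPM in exposed null libraries, against 138, 129, 120.2, 115 and 133 in naive null libraries. It stood at 253, 257, 299, 286 and 311 scaled CPM in exposed wild type libraries, against 133, 113, 139.6 and 150.4 in naive wild type libraries. Exposed and naive libraries were apart in both genotypes, with log2 fold changes of 0.83 (SE 0.084, adjusted p = 5.0e-08) in null and 1.07 (SE 0.090, adjusted p = 4.8e-09) in wild type mice. Idi1 (ENSMUSG00000058258.16, chromosome 13, 8935537 to 8942487), which converts isopentenyl diphosphate to its reactive isomer, had the largest change of this arm. Idi1 stood at 75.9, 95.9, 92.7, 86.8 and 119.6 scaled CPM in exposed null libraries, against 43.8, 41.7, 29.6, 30.9 and 31.9 in naive null libraries. It stood at 95.3, 85.6, 116, 125 and 137 scaled CPM in exposed wild type libraries, against 37.3, 33.04, 40.6 and 39.6 in naive wild type libraries. Its lowest exposed value was well above its highest naive value in both genotypes, and the log2 fold change was 1.41 (SE 0.14, adjusted p = 3.9e-08) in null and 1.57 (SE 0.15, adjusted p = 3.6e-08) in wild type mice.

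The other members of the arm changed less or in another direction. Pmvk, the phosphomevalonate kinase, had log2 fold changes of 0.25 (SE 0.10, adjusted p = 0.0539) in null and 0.51 (SE 0.11, adjusted p = 0.000848) in wild type mice, and with DESeq2 it also rose in null mice (0.27, adjusted p = 0.0264). Fdps, which makes farnesyl diphosphate, had log2 fold changes of 0.33 (SE 0.14, adjusted p = 0.0566) in null and 0.41 (SE 0.15, adjusted p = 0.0327) in wild type mice, and with DESeq2 it also rose in null mice (0.35, adjusted p = 0.0255). The wild type edgeR call was lost, with values of 0.34 to 0.40 and adjusted p = 0.0708 to 0.113, when any one of exposed wild type libraries 3, 4 and 5 or naive wild type libraries 1, 2 and 4 was left out. Mvk, the mevalonate kinase, stood at 8.62 to 12.8 scaled CPM in exposed and 14.98 to 18.5 in naive wild type libraries. It fell in wild type mice (log2 fold change -0.67, SE 0.15, adjusted p = 0.000868) and had -0.27 (SE 0.14, adjusted p = 0.126) in null mice. Acat2, a thiolase, and Mvd, a decarboxylase, had log2 fold changes between -0.056 and 0.13 that did not pass in either genotype.

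The sterol arm turns farnesyl diphosphate into squalene, closes the rings and trims lanosterol to cholesterol, and its 11 genes moved both ways. In null mice 6 rose, 3 fell and 2 did not pass, and in wild type mice 6 rose, 1 fell and 4 did not pass. Cyp51 (ENSMUSG00000001467.6, chromosome 5, 4131145 to 4154746), the lanosterol demethylase, had the largest rise. Cyp51 stood at 139.7, 173, 148, 144 and 189 scaled CPM in exposed null libraries, against 68.3, 78.5, 74.1, 63.03 and 59.4 in naive null libraries. It stood at 183, 177, 207, 222 and 223 scaled CPM in exposed wild type libraries, against 68.6, 51.5, 76.6 and 70.02 in naive wild type libraries. Exposed libraries lay well above naive libraries in both genotypes, with log2 fold changes of 1.21 (SE 0.11, adjusted p = 9.9e-09) in null and 1.60 (SE 0.12, adjusted p = 7.1e-10) in wild type mice. Sc5d (ENSMUSG00000032018.15, chromosome 9, 42162891 to 42175552), a sterol desaturase near the end of the route, rose as well. Sc5d stood at 27.3, 39.1, 39.9, 40.4 and 40.7 scaled CPM in exposed null libraries, against 22.1, 20.2, 19.9, 18.4 and 18.6 in naive null libraries. It stood at 41.96, 38.3, 51.4, 52.1 and 48.9 scaled CPM in exposed wild type libraries, against 19.7, 16.6, 19.2 and 19.1 in naive wild type libraries. Exposed null library 1 lay apart from the other 4 of its group, yet above all naive null libraries, and the log2 fold change was 0.92 (SE 0.11, adjusted p = 4.8e-07) in null and 1.32 (SE 0.12, adjusted p = 1.2e-08) in wild type mice.

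Sqle, the squalene epoxidase and a rate-controlling enzyme, rose in both genotypes. Sqle stood at 31.6, 34.01, 45.3, 43.3 and 47.7 scaled CPM in exposed null libraries, against 30.99, 26.2, 22.3, 24.9 and 27.1 in naive null libraries. It stood at 40.7, 40.5, 71.5, 54.9 and 53.4 scaled CPM in exposed wild type libraries, against 26.8, 22.8, 24.3 and 25.7 in naive wild type libraries. The groups did not overlap, although in null mice the lowest exposed value lay close to the highest naive value, and the log2 fold change was 0.62 (SE 0.14, adjusted p = 0.00111) in null and 1.07 (SE 0.15, adjusted p = 8.7e-06) in wild type mice. Msmo1, a methylsterol oxidase, stood at 41.8, 57.99, 55.8, 50.5 and 50.8 scaled CPM in exposed null libraries, against 38.2, 36.2, 38.5, 34.03 and 31.98 in naive null libraries. In exposed wild type libraries it stood at 54.3, 54.7, 65.6, 61.9 and 63.3, against 35.8, 30.6, 41.8 and 36.7 in naive wild type libraries. It rose in both genotypes without overlap, with log2 fold changes of 0.52 (SE 0.094, adjusted p = 0.000101) in null and 0.73 (SE 0.10, adjusted p = 6.0e-06) in wild type mice. Hsd17b7, a keto-sterol reductase, rose by log2 fold changes of 0.62 (SE 0.14, adjusted p = 0.00114) in null and 0.94 (SE 0.15, adjusted p = 3.8e-05) in wild type mice. Fdft1, the squalene synthase, rose by log2 fold changes of 0.30 (SE 0.10, adjusted p = 0.0204) in null and 0.53 (SE 0.11, adjusted p = 0.000523) in wild type mice, and the null call was lost without exposed null library 3 (0.27, adjusted p = 0.0554) or 5 (0.26, adjusted p = 0.0580).

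Several enzymes of the same arm fell or did not pass. Tm7sf2 (ENSMUSG00000024799.17, chromosome 19, 6112851 to 6118403), a sterol reductase that acts between Cyp51 and the final steps, fell in both genotypes. Tm7sf2 stood at 5.11, 5.67, 5.44, 6.39 and 5.77 scaled CPM in exposed null libraries, against 9.79, 11.3, 12.7, 12.3 and 12.9 in naive null libraries. It stood at 5.22, 7.43, 6.24, 4.81 and 5.81 scaled CPM in exposed wild type libraries, against 8.30, 9.22, 9.97 and 9.96 in naive wild type libraries. Every exposed library lay below every naive library of its genotype, and the log2 fold change was -1.05 (SE 0.12, adjusted p = 3.9e-07) in null and -0.67 (SE 0.13, adjusted p = 0.000271) in wild type mice. Lss, which closes the sterol rings, and Dhcr7, a reductase that makes cholesterol from its precursor, fell in null mice and did not pass in wild type mice. Lss had log2 fold changes of -0.37 (SE 0.11, adjusted p = 0.00936) in null and -0.18 (SE 0.12, adjusted p = 0.245) in wild type mice, and Dhcr7 had log2 fold changes of -0.36 (SE 0.11, adjusted p = 0.00962) in null and -0.15 (SE 0.12, adjusted p = 0.35) in wild type mice. Nsdhl and Ebp, a dehydrogenase and an isomerase of the same route, had values between -0.26 and 0.055 and did not pass. Without exposed null library 3, Mvk (-0.38, adjusted p = 0.030) and Nsdhl (-0.38, adjusted p = 0.0143) also passed as lower in null mice, so that 5 rather than 3 SREBP2 targets fell.

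**Figure D2:**
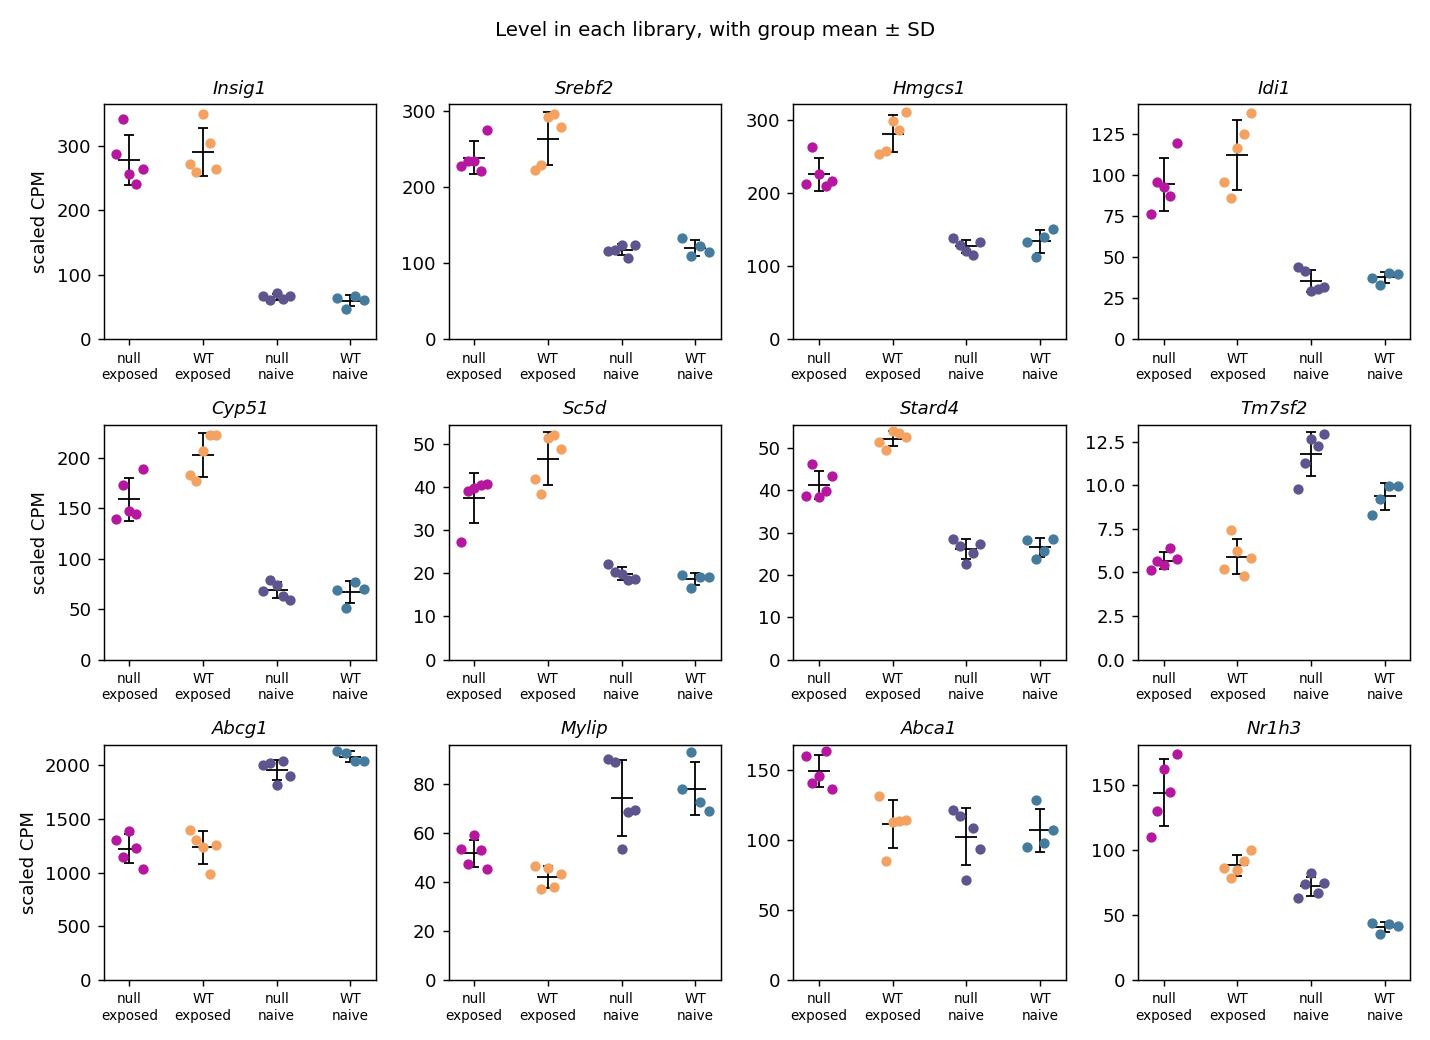
Scaled CPM (y axis, from 0) of 12 members in each library, with group mean and SD as bars, in exposed null, exposed wild type, naive null and naive wild type mice (n = 5, 5, 5 and 4). Insig1, Srebf2, Hmgcs1, Idi1, Cyp51, Sc5d and Stard4 sit higher in both exposed groups than in both naive groups, and Tm7sf2 and Abcg1 sit lower.

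The 5 LXR targets showed no shared rise. In null mice 1 rose, 2 fell and 2 did not pass, with a median log2 fold change of -0.14, and in wild type mice 0 rose, 2 fell and 3 did not pass, with a median of -0.27. DESeq2 also called 0 of them higher in wild type mice. With edgeR 3 of the 5 had an unadjusted p under 0.05 there. Of all 20501 genes, 4871 were higher and 4832 lower at that threshold. Abcg1 (ENSMUSG00000024030.8, chromosome 17, 31276649 to 31336962), which exports cholesterol to lipoprotein particles, fell in both genotypes. Abcg1 stood at 1306, 1141, 1383, 1233 and 1037 scaled CPM in exposed null libraries, against 2006, 2024, 1815, 2039 and 1896 in naive null libraries. It stood at 1394, 1299, 1241, 987 and 1252 scaled CPM in exposed wild type libraries, against 2133, 2110.2, 2039 and 2041 in naive wild type libraries. All exposed libraries lay below all naive libraries, and the log2 fold change was -0.68 (SE 0.081, adjusted p = 5.5e-07) in null and -0.75 (SE 0.086, adjusted p = 3.8e-07) in wild type mice. Mylip (ENSMUSG00000038175.11, chromosome 13, 45543218 to 45565498), an E3 ubiquitin ligase that promotes degradation of lipoprotein receptors, fell too. Mylip stood at 53.3, 47.4, 59.2, 53.1 and 45.3 scaled CPM in exposed null libraries, against 90.01, 88.9, 53.1, 68.4 and 69.4 in naive null libraries. It stood at 46.4, 36.9, 45.5, 37.9 and 43.01 scaled CPM in exposed wild type libraries, against 77.6, 92.96, 72.5 and 68.7 in naive wild type libraries. Naive null library 3 overlapped the exposed null libraries, while the wild type groups were apart, and the log2 fold change was -0.52 (SE 0.12, adjusted p = 0.00159) in null and -0.89 (SE 0.13, adjusted p = 1.1e-05) in wild type mice.

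Abca1 (ENSMUSG00000015243.5, chromosome 4, 53030787 to 53159895), which loads cholesterol onto lipid-poor apolipoproteins, behaved unlike Abcg1. Abca1 stood at 159, 141, 145, 163 and 136 scaled CPM in exposed null libraries, against 121, 117, 70.9, 108 and 93.1 in naive null libraries. It stood at 131, 84.6, 113, 113 and 114 scaled CPM in exposed wild type libraries, against 94.6, 128, 97.4 and 107 in naive wild type libraries. The exposed null libraries lay above all naive null libraries, and the wild type groups overlapped. The log2 fold change was 0.54 (SE 0.13, adjusted p = 0.00141) in null and 0.058 (SE 0.14, adjusted p = 0.774) in wild type mice. Lpcat3, a phospholipid acyltransferase, had log2 fold changes of -0.14 (SE 0.11, adjusted p = 0.302) in null and -0.27 (SE 0.11, adjusted p = 0.0661) in wild type mice, and passed as lower in wild type mice when exposed wild type library 3 (-0.33, adjusted p = 0.0293), naive wild type library 3 (-0.35, adjusted p = 0.0226) or naive wild type library 4 (-0.32, adjusted p = 0.0489) was left out. Srebf1, which encodes the sister factor SREBP1 and is switched on by LXR, had log2 fold changes of -0.041 (SE 0.10, adjusted p = 0.772) in null and -0.15 (SE 0.11, adjusted p = 0.302) in wild type mice.

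The genes that encode the regulators themselves were split. Srebf2 (ENSMUSG00000022463.9, chromosome 15, 82031382 to 82089580), which encodes SREBP2, rose in both genotypes. Srebf2 stood at 228, 234, 234, 222 and 275 scaled CPM in exposed null libraries, against 116, 117, 124, 106 and 124 in naive null libraries. It stood at 223, 229, 292, 296 and 279 scaled CPM in exposed wild type libraries, against 133, 109, 123 and 115 in naive wild type libraries. All exposed libraries stood above all naive libraries, with log2 fold changes of 1.02 (SE 0.086, adjusted p = 3.0e-09) in null and 1.14 (SE 0.093, adjusted p = 2.8e-09) in wild type mice. Scap and Insig2, its escort and the second retention protein, had log2 fold changes between -0.14 and -0.032 and did not pass in either genotype on scaled counts. On log2(TPM + 1) both fell in both genotypes, Scap with -0.49 (adjusted p = 8.71e-05) in null and -0.44 (adjusted p = 0.000521) in wild type mice, and Insig2 with -0.40 (adjusted p = 0.000564) in null and -0.43 (adjusted p = 0.00062) in wild type mice. Nr1h3 (ENSMUSG00000002108.11, chromosome 2, 91014406 to 91033179), which encodes LXR alpha, the receptor enriched in macrophages, rose in both genotypes. Nr1h3 stood at 109.96, 130.02, 163, 145 and 174 scaled CPM in exposed null libraries, against 63.2, 73.8, 82.1, 66.8 and 74.8 in naive null libraries. It stood at 86.2, 78.2, 84.8, 91.5 and 100.3 scaled CPM in exposed wild type libraries, against 43.9, 34.98, 42.7 and 41.8 in naive wild type libraries. Within each genotype the groups were apart, and the log2 fold change was 1.00 (SE 0.11, adjusted p = 1.2e-07) in null and 1.11 (SE 0.12, adjusted p = 1.1e-07) in wild type mice. Nr1h2, the widely expressed LXR beta, had log2 fold changes of -0.039 (SE 0.070) in null and -0.045 (SE 0.074) in wild type mice and did not pass on scaled counts, and on log2(TPM + 1) it fell, with -0.42 (adjusted p = 0.000365) in null and -0.48 (adjusted p = 0.000156) in wild type mice.

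The calls of the 3 trafficking and esterification genes depended on the scale. On scaled counts none of the 3 passed in null mice with edgeR or DESeq2 (0 at an unadjusted p under 0.05), and in wild type mice 1 rose. On log2(TPM + 1) all 3 fell in null mice and 2, Npc2 and Soat1, fell in wild type mice. The counts over all genes on that scale are given above. Npc1, the membrane partner of Npc2 in lysosomal cholesterol export, had log2 fold changes of 0.036 (SE 0.11, adjusted p = 0.813) in null and 0.30 (SE 0.11, adjusted p = 0.0384) in wild type mice. The wild type call was lost, with values of 0.22 to 0.31 and adjusted p = 0.0562 to 0.121, without any one of exposed wild type libraries 1, 2 and 3 or naive wild type libraries 1, 3 and 4. Npc2 had log2 fold changes of 0.065 (SE 0.046) in null and 0.090 (SE 0.049) in wild type mice. Soat1, which esterifies cholesterol for storage, had -0.099 (SE 0.050) in null and 0.080 (SE 0.053) in wild type mice, and neither gene passed. On log2(TPM + 1) Npc1 had -0.35 (adjusted p = 0.0167) in null mice. Npc2 had -0.29 (adjusted p = 2.78e-05) in null and -0.29 (adjusted p = 5.7e-05) in wild type mice there, and Soat1 had -0.42 (adjusted p = 1.7e-06) in null and -0.29 (adjusted p = 0.000275) in wild type mice, so that Npc2 in both genotypes and Soat1 in wild type mice had the opposite sign to that on scaled counts.

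The size of these changes depended on the scale. TMM factors were 0.865 to 0.955 in exposed and 1.11 to 1.17 in naive libraries. On the log2(TPM + 1) scale of the authors' TPM, which has no such factor, the median difference of all genes tested was -0.19 in null and -0.22 in wild type mice, and limma called 2236 genes higher and 8414 lower in null and 2251 higher and 8402 lower in wild type mice. On scaled counts 4387 were higher and 4793 lower in null, and 4111 higher and 4134 lower in wild type mice. The median of the SREBP2 targets on the TPM scale was -0.063 in null and 0.14 in wild type mice, which is 0.12 and 0.36 above that of all genes. The median of the LXR targets was -0.50 in null and -0.68 in wild type mice, 0.31 and 0.46 below that of all genes, and 4 of 5 fell in each genotype. Insig1, Cyp51, Idi1, Sc5d, Hmgcs1, Stard4, Srebf2 and Nr1h3 rose and Tm7sf2, Abcg1 and Mylip fell on both scales in both genotypes. Fdft1 in null mice (-0.073) and Npc1 in wild type mice (-0.10) turned sign on the TPM scale without passing. The calls of Pmvk, Fdps and Fdft1 in wild type mice and of Sqle, Msmo1, Hsd17b7 and Abca1 in null mice did not pass there, with differences of 0.016 to 0.26. In the other direction, 12 members in each genotype fell on that scale without a call on scaled counts. They were Mvd, Nsdhl, Ebp, Lpcat3, Srebf1, Scap, Insig2, Nr1h2, Npc2 and Soat1 in both genotypes, with Mvk and Npc1 in null and Lss and Dhcr7 in wild type mice, and their differences were -0.56 to -0.29 in null and -0.68 to -0.29 in wild type mice.

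**Figure D3:**
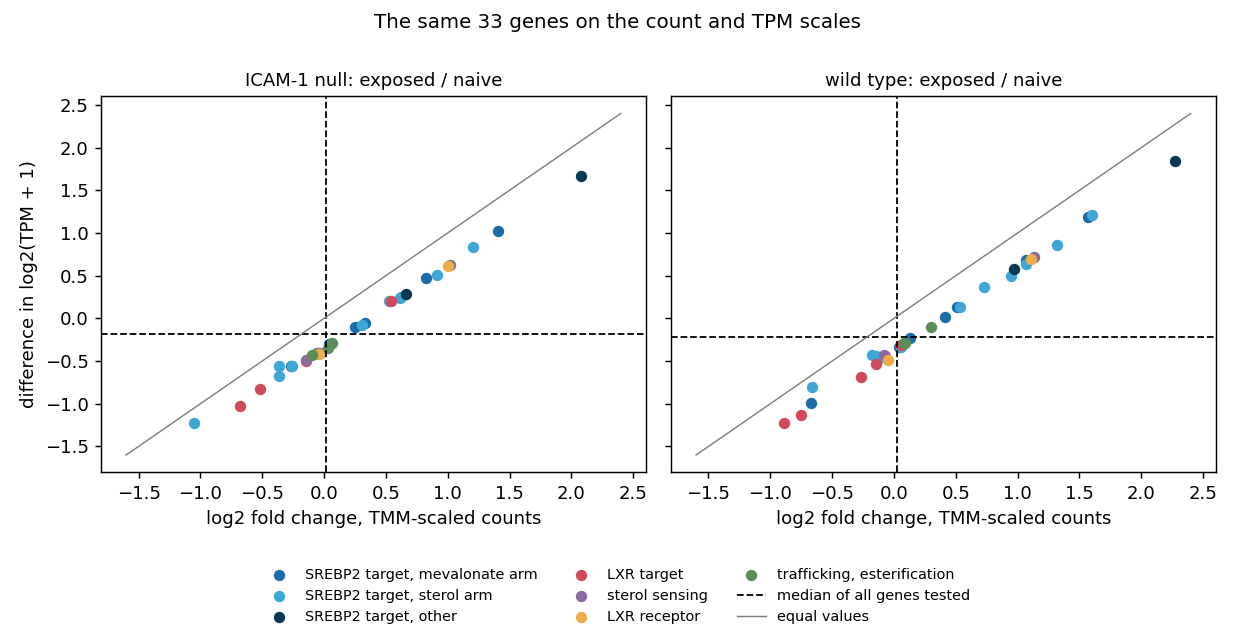
Difference in log2(TPM + 1) (y axis) against log2 fold change of TMM-scaled counts (x axis) for the 33 genes, exposed minus naive, in ICAM-1 null mice on the left and wild type mice on the right. Dashed lines mark the medians of all genes tested (-0.19 and -0.22 on the y axis), and all 33 genes lie below the solid line of equal values.

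Genes linked to the same routes, but not among the 33, were counted from 4 lists. Over the 34 tested genes of these lists, 5 rose and 7 fell in null mice and 10 rose and 9 fell in wild type mice. Over all genes 44.8% were called in either direction in null and 40.2% in wild type mice. Of 10 genes of SREBP processing and sterol sensing, 3 fell in null mice and 7 did not pass, and in wild type mice 2 rose, 4 fell and 4 did not pass. On log2(TPM + 1) 0 rose and 9 fell in null and 0 rose and 8 fell in wild type mice. Of all 20501 genes, 2236 rose and 8414 fell in null mice on that scale. In wild type mice 2251 rose and 8402 fell there. Erlin2, an endoplasmic reticulum scaffold protein, fell with a log2 fold change of -0.77 (SE 0.084) in null and -0.46 (SE 0.089) in wild type mice. Of 11 genes of fatty acid synthesis, 1 rose and 1 fell in null and 2 rose and 1 fell in wild type mice, against 0 and 4 in null and 1 and 3 in wild type mice on log2(TPM + 1). Fasn, the fatty acid synthase, rose by log2 fold changes of 0.83 (SE 0.19, adjusted p = 0.00141) in null and 1.00 (SE 0.21, adjusted p = 0.000567) in wild type mice, and did not pass on log2(TPM + 1), with 0.32 (adjusted p = 0.163) in null and 0.46 (adjusted p = 0.0573) in wild type mice. Of 4 further LXR targets, 1 rose and 3 did not pass in null mice, and 1 rose, 2 fell and 1 did not pass in wild type mice, while on log2(TPM + 1) 0 rose and 3 fell in each. Mertk, a receptor for apoptotic cells, was the gene that rose in both, by log2 fold changes of 0.40 (SE 0.10) in null and 0.56 (SE 0.11) in wild type mice, and did not pass on log2(TPM + 1), with 0.027 (adjusted p = 0.855) in null and 0.19 (adjusted p = 0.165) in wild type mice.

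The list of lipoprotein uptake and oxysterol enzymes held the largest exposure changes of the other lists. Of its 10 genes, 9 were tested, of which 3 rose and 3 fell in null and 5 rose and 2 fell in wild type mice. On log2(TPM + 1) 2 rose and 4 fell in each, beside the counts over all genes given above. Ch25h, Olr1 and Lrp1 passed in the same direction on both scales. Ch25h, which makes the oxysterol 25-hydroxycholesterol, averaged 776 ± 134 scaled CPM in exposed null libraries, against 54.1 ± 19.3 in naive null libraries (SD). In wild type mice it averaged 884 ± 92.2 in exposed and 73.4 ± 21.2 in naive libraries. Its log2 fold change was 3.84 (SE 0.21, adjusted p = 2.7e-12) in null and 3.59 (SE 0.23, adjusted p = 4.6e-11) in wild type mice. Olr1, a receptor for oxidised lipoprotein, rose by log2 fold changes of 2.79 (SE 0.13, adjusted p = 2.3e-13) in null and 2.89 (SE 0.14, adjusted p = 8.5e-13) in wild type mice. Lrp1, a lipoprotein receptor, fell, with a log2 fold change of -0.32 (SE 0.080) in null and -0.41 (SE 0.085) in wild type mice.

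In naive mice few members passed between genotypes. Of the 33 members, 2 were higher in null mice and 0 lower, against 4.31% of all genes called higher and 2.55% lower. DESeq2 gave the same 2 counts, and with edgeR 5 members had an unadjusted p under 0.05. Of all 20501 genes, 2152 were higher and 1390 lower at that threshold. None of the 20 SREBP2 targets and none of the 5 LXR targets passed in either direction with edgeR or DESeq2, and 1 and 0 of them had an unadjusted p under 0.05. The SREBP2 targets had a median log2 fold change of 0.016, against 0.014 over all genes, within a range of -0.26 to 0.33. Without overlap, 4 members (Nr1h3, Npc1, Npc2 and Soat1) were higher and 1 (Abcg1) lower in null libraries, against 6.59% and 4.7% of all genes. Npc1 (0.32, SE 0.11, adjusted p = 0.106), Soat1 (0.14, SE 0.053, adjusted p = 0.13) and Abcg1 (-0.089, SE 0.086, adjusted p = 0.701) did not pass. The Abcg1 groups nearly touched, with 2038.87 scaled CPM as the highest naive null and 2038.93 as the lowest naive wild type value. With only the groups compared in the edgeR fit, Npc1 passed (0.31, adjusted p = 0.0206). The 2 members that passed in the main test were Nr1h3 and Npc2. Nr1h3 stood at 63.2, 73.8, 82.1, 66.8 and 74.8 scaled CPM in naive null libraries, against 43.9, 34.98, 42.7 and 41.8 in naive wild type libraries, without overlap (log2 fold change 0.82, SE 0.12, adjusted p = 4.5e-05). Npc2 (ENSMUSG00000021242.10, chromosome 12, 84801336 to 84819926) stood at 563, 577, 588, 545 and 575 in naive null libraries, against 482, 479.7, 500.4 and 485 in naive wild type libraries, also without overlap (0.23, SE 0.049, adjusted p = 0.00462).

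Both genes were also higher in exposed null than in exposed wild type mice. The exposed contrast shares no library with the naive one, but both come from 1 model with a shared estimate of spread. The values of the exposed contrast follow. Nr1h3 stood at 109.96, 130.02, 163, 145 and 174 scaled CPM in exposed null libraries, against 86.2, 78.2, 84.8, 91.5 and 100.3 in exposed wild type libraries. The groups did not overlap, and the log2 fold change was 0.71 (SE 0.11, adjusted p = 9.9e-05). Npc2 stood at 579, 628, 602, 574 and 596 in exposed null libraries, against 543, 512, 515, 489 and 533 in exposed wild type libraries, without overlap (0.20, SE 0.046, adjusted p = 0.00705). Of 70 tested genes within 5 Mb of Nr1h3 on chromosome 2, 14.3% differed between genotypes in naive and 17.1% in exposed mice, against 6.86% and 8.48% of all genes. Around Npc2 on chromosome 12 the shares of 131 genes were 2.29% and 4.58%. Windows of the same size were also counted around members that passed in exposed mice only. The naive and exposed shares were 12.9% and 9.68% of 31 genes around Hmgcs1 and 9.3% and 2.33% of 43 around Abca1. They were 4.08% and 2.04% of 49 genes around Cyp51 and 3.28% and 7.38% of 122 around Stard4. Whether sequence that differs between the lines at these places bears on the values was not tested.

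After exposure the carrier gene Stard4 and the synthesis genes Hmgcs1 and Cyp51 were lower in null than in wild type mice. Of all 33 members, 3 were higher and 3 lower in exposed null mice, against 4.43% of all genes called higher and 4.04% lower. The 3 lower members were all SREBP2 targets. Of the 20 targets, 17 had a negative log2 fold change (median -0.23, against -0.0046 over all genes). Of these, 9 had an unadjusted p under 0.05, where 2027 of all 20501 genes were lower at that threshold. The share of all genes with a negative value is not given here. Stard4, whose values in all libraries are given above, did not overlap between exposed null and exposed wild type libraries (38.4 to 46.1 against 49.5 to 53.96 scaled CPM). Its log2 fold change was -0.34 (SE 0.076, adjusted p = 0.00606). Hmgcs1 ranged over 209.6 to 263 in exposed null and 253 to 311 in exposed wild type libraries, with -0.32 (SE 0.083, adjusted p = 0.0175). Without exposed wild type library 5 it was -0.28 with adjusted p = 0.0517.

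The calls of Cyp51 and Abca1 in exposed mice were close to the threshold. On the log2 scale Cyp51 differed by -0.35 (SE 0.11, adjusted p = 0.047) and overlapped between groups. It did not pass when any one of 11 libraries was left out (exposed null 1, 3 and 4, exposed wild type 3, 4 and 5, naive null 1, 3 and 4, naive wild type 1 and 4), with values of -0.35 to -0.31 and adjusted p = 0.0529 to 0.115. With each of the 19 libraries left out in turn, 1 to 4 SREBP2 targets were lower in exposed null mice, with 1 without exposed wild type library 5 and 4 without exposed wild type library 2. Abca1 was the LXR target that was higher in exposed null mice, without overlap (136 to 163 against 84.6 to 131 scaled CPM), at 0.42 (SE 0.13, adjusted p = 0.0431). It did not pass without any one of exposed null libraries 1 to 4, exposed wild type libraries 2 to 5 or naive null library 4, with values of 0.34 to 0.44 and adjusted p = 0.0516 to 0.125. Exposed wild type libraries, which held the higher epithelial and red cell sums given above, enter all these comparisons. Of 10 epithelial markers, 1 was higher and 3 were lower in exposed null than in exposed wild type mice. The higher one, Epcam, averaged 110 TPM in exposed null and 54.1 TPM in exposed wild type libraries. Scgb1a1, among the lower ones, averaged 439.7 and 1266 TPM. The part of epithelial and red cells in these comparisons was not tested.

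**Figure D4:**
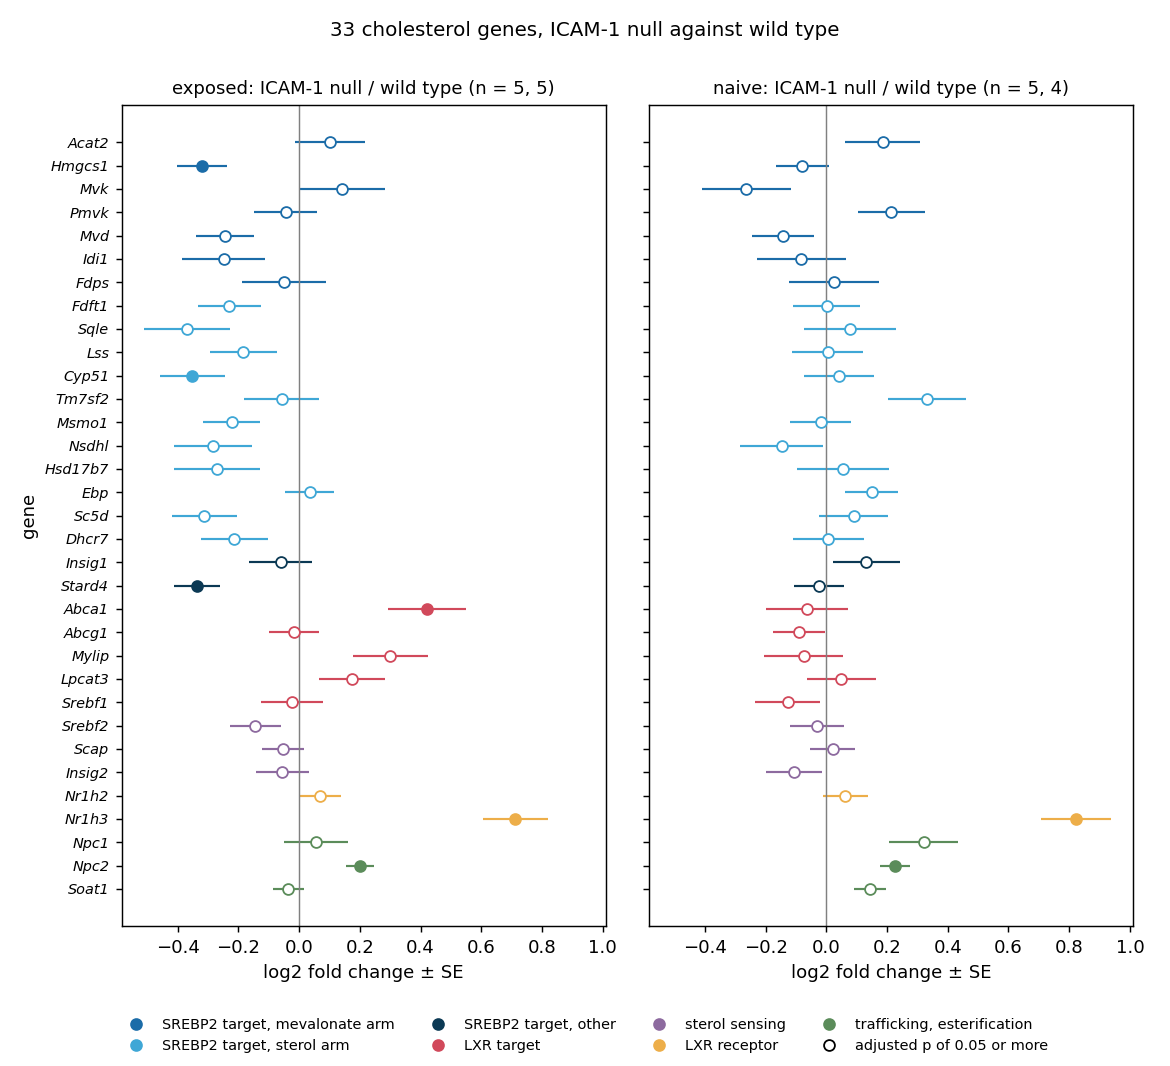
Log2 fold change (x axis, ± SE) of each of the 33 genes (y axis, role in colour) for ICAM-1 null over wild type mice, exposed on the left and naive on the right. Filled points passed an adjusted p of 0.05, and Nr1h3 lies farthest to the right in both panels (0.71 and 0.82).

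Whether null and wild type mice responded differently was tested by the interaction, defined as the null response minus the wild type response; it is built from the same libraries as the contrasts above. None of the 33 members passed (edgeR, 8 with an unadjusted p under 0.05, and 0 with DESeq2), against 0.18% of all genes called higher and 0.151% lower. At an unadjusted p under 0.05, 793 of all 20501 genes had a higher and 1226 a lower interaction. The interaction was negative for 19 of 20 SREBP2 targets (median -0.21, against -0.032 over all genes), 5 of them with an unadjusted p under 0.05. The exception was Mvk at 0.41 (SE 0.20). The smallest p among the targets was that of Stard4, with -0.31 (SE 0.11, adjusted p = 0.312). All 5 LXR targets had a positive interaction (median 0.13), 2 of them with an unadjusted p under 0.05, Abca1 at 0.49 (SE 0.19, adjusted p = 0.357) and Mylip at 0.37 (SE 0.18, adjusted p = 0.504). The share of all genes with a positive or a negative interaction is not given here, and no test of a list as a whole was run. An equal response was not shown.

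Of the 34 tested genes of the 4 further lists, 7 differed between genotypes in exposed and 8 in naive mice. Over all genes 8.48% and 6.86% differed. In both states 5 of the 34 differed in the same direction, and the share of all genes that did so is not given here. These lists were chosen with earlier results of these data known. Msr1, a scavenger receptor that takes up modified lipoprotein, averaged 4.38 ± 1.07 scaled CPM in exposed null and 34.5 ± 10.8 in exposed wild type libraries (SD), or -2.97 on the log2 scale (SE 0.27, adjusted p = 1.1e-07). In naive mice it averaged 2.996 ± 1.46 in null and 20.3 ± 2.62 in wild type libraries (-2.77, SE 0.28, adjusted p = 5.3e-07). Smpdl3a, a sphingomyelinase-like LXR target, was higher in null mice by log2 fold changes of 0.41 (SE 0.072) when exposed and 0.55 (SE 0.077) when naive. Scarb1, a receptor for high-density lipoprotein, was higher in null mice by log2 fold changes of 0.40 (SE 0.11) when exposed and 0.46 (SE 0.12) when naive, and did not pass on log2(TPM + 1) when exposed (0.37, adjusted p = 0.0922) or naive (0.40, adjusted p = 0.0848). Elovl6, a fatty acid elongase, was higher in null mice by log2 fold changes of 1.13 (SE 0.29) when exposed and 1.09 (SE 0.31) when naive. Scd2, a fatty acid desaturase, was lower in null mice, with log2 fold changes of -0.58 (SE 0.15) when exposed and -0.70 (SE 0.16) when naive. Among the 10 genes of SREBP processing, Erlin2 was the one that differed in naive mice, higher in null (log2 fold change 0.50, SE 0.090).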

How the data were processed

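RNA of lavage cell pellets was sequenced in 150-base pairs after poly(A) selection, at a planned 20 M reads a library, per the labels' protocols. STAR, StringTie (version 2) and build GRCm39 are named in the submitters' processing notes; no source used here gives the strand or counting options, so reads of overlapping or antisense genes may be shared. The deposited tables hold estimated counts, as whole numbers without depth scaling by the authors, and TPM, which the authors scaled per library, for 56941 genes in 19 libraries. No library was left out, and no 2 libraries of a group held identical values.

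Estimated counts were tested with edgeR 4.0.16 (R 4.3.3) with the two-sided quasi-likelihood F test, in 1 model of group means over all 19 libraries, with TMM scaling and filterByExpr (minimum count 10, minimum total 15), which kept 20501 genes. P-values were adjusted by Benjamini and Hochberg's method over all of them, and rose, fell, higher and lower mean an adjusted p under 0.05. SE is the log2 fold change divided by the root of F. The labels number mice within a group and give no litter or day, so each p-value rests on the spread between the sampled libraries only. Alternatives used DESeq2 1.42.0, DESeq2 size factors, limma 3.58.1 on log2(TPM + 1) and log2(TPM + 0.1), other filters, the replicate number as a block, only the groups compared, naive wild type without its 3 lowest totals, and each library left out in turn. The method was tested on simulated counts. Totals of 32.8 to 80.3 M limit precision least for abundant genes.

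The members, lists, motifs and comparisons were chosen with earlier results of these data known, and the 5 Mb window around a gene was chosen after seeing the data. Members called in a comparison were given by library, at most 12 per comparison by smallest adjusted p, and of each further list at most 3 genes per comparison. No test of a list as a whole was run. Promoter sequences are from RefSeq (GRCm38.p6) and were matched by symbol; coordinates of genes are those of the deposited tables (GRCm39), and no coordinate was converted.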

Additional observations from a re-analysis of the deposited data

Results flagged for a closer look

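In each of the 4 groups every member was examined for a library that stood apart, by the gap to its nearest neighbour as a share of the group's range (Dixon's test at the 95% level). Of 132 such sets of values, 6 were picked out, where chance gives about 1 in 20. Nsdhl stood at 12.03 scaled CPM in exposed null library 3, against 8.16 to 8.75 in the other 4 libraries. Sc5d stood at 27.3 in exposed null library 1, against 39.1 to 40.7 in the other 4. Srebf2 stood at 275 in exposed null library 5, against 222 to 234 in the other 4. Scap stood at 76.4 in exposed wild type library 3, against 63.5 to 67.1 in the other 4. In naive wild type library 4, the library with the highest total of its group, Mvk stood at 14.98 and Srebf1 at 111 scaled CPM, against 18.2 to 18.5 and 126 to 129 in the other 3. No member's response differed between genotypes by the test of the difference.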

How the results depend on the processing

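DESeq2, DESeq2 size factors and a filter at a mean TPM of 1 kept the direction and call of all 45 member results that passed. The log2(TPM + 1) and log2(TPM + 0.1) scales each reversed 2 of the 45 and ended 9; the cause was not tested. They turned Npc1 in wild type mice (-0.10 and -0.11) and Fdft1 in null mice (-0.073 and -0.076). On both scales 6 SREBP2 targets rose and 7 fell in null mice and 7 fell in wild type mice, 0 LXR targets rose and 4 fell in null mice, 4 fell in wild type mice, and 0 were higher in exposed null mice. At log2(TPM + 1), 2236 genes rose and 8414 fell in null and 2251 rose and 8402 fell in wild type mice; at log2(TPM + 0.1) the counts were 2249 and 8383 in null and 2303 and 8315 in wild type mice. At log2(TPM + 1), 785 genes were lower in naive null mice and 75 had a higher interaction. DESeq2 called 111 higher and 129 lower interactions, and no filter gave 21 and 17. Without a filter, and with the replicate block, 0 LXR targets were higher in exposed null mice. The edgeR fit without a filter ended 5 of the 45 calls. On exposure they were Fdps (0.40, adjusted p = 0.0581) and Npc1 (0.29, adjusted p = 0.0648) in wild type and Fdft1 (0.28, adjusted p = 0.0529) in null mice. Between genotypes in exposed mice they were Cyp51 (-0.34, adjusted p = 0.0858) and Abca1 (0.43, adjusted p = 0.0598). With only the groups compared, 551 genes were lower in exposed null mice.

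Without the 3 naive wild type libraries of lowest total, which leaves 1 assumed to vary like the other groups, 1 SREBP2 target fell in wild type mice, 1922 genes rose and 2331 fell there, 195 were higher and 126 lower in naive null mice, and the interaction gave 8 and 2. Calls that did not pass in that setting were those of Nr1h3 (0.79) and Npc2 (0.23) in naive mice. In wild type mice on exposure they were those of Mvk (-0.47), Fdft1 (0.45), Fdps (0.41) and Npc1 (0.38). With only the groups compared, Npc2 in exposed mice was 0.19 (adjusted p = 0.0792), and Npc2 in naive mice was 0.16 (adjusted p = 0.0567) on log2(TPM + 1).

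Leaving out each library in turn, 9 to 12 SREBP2 targets rose and 3 to 5 fell in null mice, and 11 to 12 rose and 2 fell in wild type mice. Of LXR targets 1 rose and 2 fell in null mice, and 0 rose and 2 to 3 fell in wild type mice. In exposed null against exposed wild type mice 1 to 4 SREBP2 targets were lower and 0 to 1 LXR targets higher. Over all genes 4005 to 4421 rose and 4434 to 4902 fell in null, and 3620 to 4141 rose and 3662 to 4214 fell in wild type mice. Between genotypes 759 to 924 were higher and 682 to 802 lower when exposed, 688 to 951 higher and 384 to 551 lower when naive, and the interaction gave 19 to 47 higher and 14 to 48 lower.

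No pairing by replicate number was seen in correlations of deviations over 18 pairs and 2000 genes. The correlations were -0.082 to 0.048, and 3 libraries correlated best with their own number. A weak pairing, or a pairing limited to few genes, could be missed this way. With the replicate block, Cyp51 (-0.35, adjusted p = 0.073) and Abca1 (0.42, adjusted p = 0.0503) in exposed mice did not pass, and Fdps in null mice (0.31, adjusted p = 0.0407), Npc1 in naive mice (0.36, adjusted p = 0.0429) and Mvd in exposed null mice (-0.24, adjusted p = 0.0353) passed. The block ended no other call of a member.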
